A study of Mus musculus with 12 samples.

Results

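The genes described here are 9 components and regulators of complement, C1qa, C1qb, C1qc, C2, C4b, C3, Cfi, Serping1 and C3ar1, in retinal RNA-seq of mice with optic neuritis. They were taken by name from the 54532 gene identifiers of the count and FPKM tables, and all 9 were found and passed the expression filter that left 18299 genes for testing. Retinas came from C57BL/6 wild type mice at 13 weeks of age, in 4 groups of 3 libraries each. SHAM mice were the sham control. MOG mice had been immunized with MOG35-55, a peptide of a myelin protein, which with Freund's adjuvant and pertussis toxin induces experimental autoimmune encephalomyelitis (EAE), a model in which the optic nerve is also inflamed. GB20 and GV16 mice had been immunized in the same way and were then needled under xylazine and ketamine at the GB20 acupoint or at the control site GV16. Whether the SHAM mice received adjuvant or toxin, and whether the MOG mice were anaesthetized, is not given in the sources used here, so that peptide, adjuvant and toxin cannot be told apart in MOG vs. SHAM, nor needling and anaesthesia in the comparisons with MOG. The study had several mice in a group in each round, and a library may hold the retinas of more than 1 mouse. The p-values therefore measure the spread between these libraries.

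Complement is a cascade of proteins that marks cells and debris for removal. In its classical pathway C1q, built from the chains of C1qa, C1qb and C1qc, binds a target and activates the proteases C1r and C1s, which cleave C4 and C2 into an enzyme that cleaves C3. C3 fragments coat the target, and the small fragment C3a acts on its receptor C3ar1, while Serping1 (C1 inhibitor) blocks C1r and C1s, and Cfi (factor I) cuts the active C3 and C4 fragments. In the retina and brain C1q is made largely by microglia, the resident macrophages, and complement takes part in the pruning of synapses.

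C4b, Serping1 and C1qa were higher in MOG than in SHAM, and no member was lower. Of these 3 DEGs C4b changed most, 3.32-fold, and it was also higher in both needled groups than in SHAM. Of the 9 genes, 0 were DEGs in either needled group against MOG. Of all tested genes only 0.240% (GB20) and 0.164% (GV16) were DEGs there, in either direction. Each library held between 15860278 and 19194280 counted fragments. Levels of a gene between libraries are in counts relative to the scaled library size (CPM), and log2 fold changes with their standard error (SE). Adjusted p-values come from the quasi-likelihood test of edgeR, corrected by the Benjamini-Hochberg method over all tested genes, and a differentially expressed gene (DEG) had an adjusted p under 0.05.

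Levels of the members can be compared with each other per length, as FPKM. In SHAM, C1qa had 4.22 ± 1.61 FPKM (SD, n = 3) and C1qb 3.84 ± 0.90, followed by Serping1 with 2.61 ± 0.43 and C1qc with 1.98 ± 0.32. The libraries of each of these genes overlapped with those of the next in the order. C4b had 1.20 ± 0.28 FPKM in SHAM, below all SHAM libraries of C1qc, and Cfi had 0.796 ± 0.225, which overlapped with C4b. The lowest were C2 with 0.324 ± 0.062, C3 with 0.225 ± 0.018 and C3ar1 with 0.0445 ± 0.0057, and these last 3 did not overlap with each other. In MOG, C4b reached 3.98 ± 0.97 FPKM, overlapped with Serping1 at 4.42 ± 0.34 and lay above C1qc at 2.59 ± 0.30. C3 in MOG had 0.993 ± 0.890 FPKM, and the SD shows how unequal its 3 libraries were.

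C4b encodes complement C4, the first protein that activated C1 cleaves. It lies on the minus strand of chromosome 17 at chr17:34728380-34743882 (ENSMUSG00000073418, GRCm38, GENCODE vM21), inside the major histocompatibility complex. A near copy, C4a, lies at chr17:34809092-34823464. The longest transcripts of the genes were identical at 96.1% of 5367 aligned bases, so that reads could in part have come from either copy. Of all stretches in the C4b transcript that are as long as the shorter reads of the study, 11.5% also occur in C4a. The following 60 bases of exon 21 of 41, within the coding sequence (chr17:34735430-34735489, minus strand), are shown because they hold 13 mismatches between the copies. Capitals mark the bases that differ.
C4b: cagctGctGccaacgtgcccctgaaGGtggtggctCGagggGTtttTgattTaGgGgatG
C4a: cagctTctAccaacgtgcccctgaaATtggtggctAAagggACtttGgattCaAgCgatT
C4a, which is annotated as a processed transcript, had 3.84 ± 0.77 CPM in SHAM libraries. The other groups had 4.45 ± 0.99 (MOG), 4.05 ± 0.67 (GB20) and 4.36 ± 0.46 CPM (GV16). Its libraries overlapped between SHAM and each other group, with a log2 fold change of 0.21 (SE 0.20, edgeR adjusted p = 0.695) in MOG vs. SHAM.

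C4b had 5.93, 8.76 and 5.94 CPM in the 3 SHAM libraries and 16.8, 23.9 and 27.9 in MOG. It had 23.2, 21.2 and 20.7 CPM in GB20 and 18.4, 12.7 and 21.0 in GV16. Every library of the 3 immunized groups lay above every SHAM library, and the immunized groups overlapped with each other. C4b had a log2 fold change of 1.73 (SE 0.22, 95% interval 1.26 to 2.21, edgeR adjusted p = 0.00133) in MOG vs. SHAM. It had 1.66 (SE 0.22, edgeR adjusted p = 0.00494) in GB20 vs. SHAM and 1.34 (SE 0.22, edgeR adjusted p = 0.0144) in GV16 vs. SHAM. These 3 comparisons share the SHAM libraries. In bulk retina, more cells that express a gene and more RNA per cell cannot be told apart, here and for every gene below. C4b stayed a DEG in MOG vs. SHAM in all 20 alternative fits, with estimates of 1.17 to 1.95. Its call in GB20 vs. SHAM was lost without SHAM replicate 1 or 3 (estimates with 1 library left out 1.56 to 1.87), and in GV16 vs. SHAM without SHAM replicate 1, SHAM replicate 3 or GV16 replicate 3 (1.18 to 1.55) and with limma on log2(FPKM + 1).

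**Figure D1:**
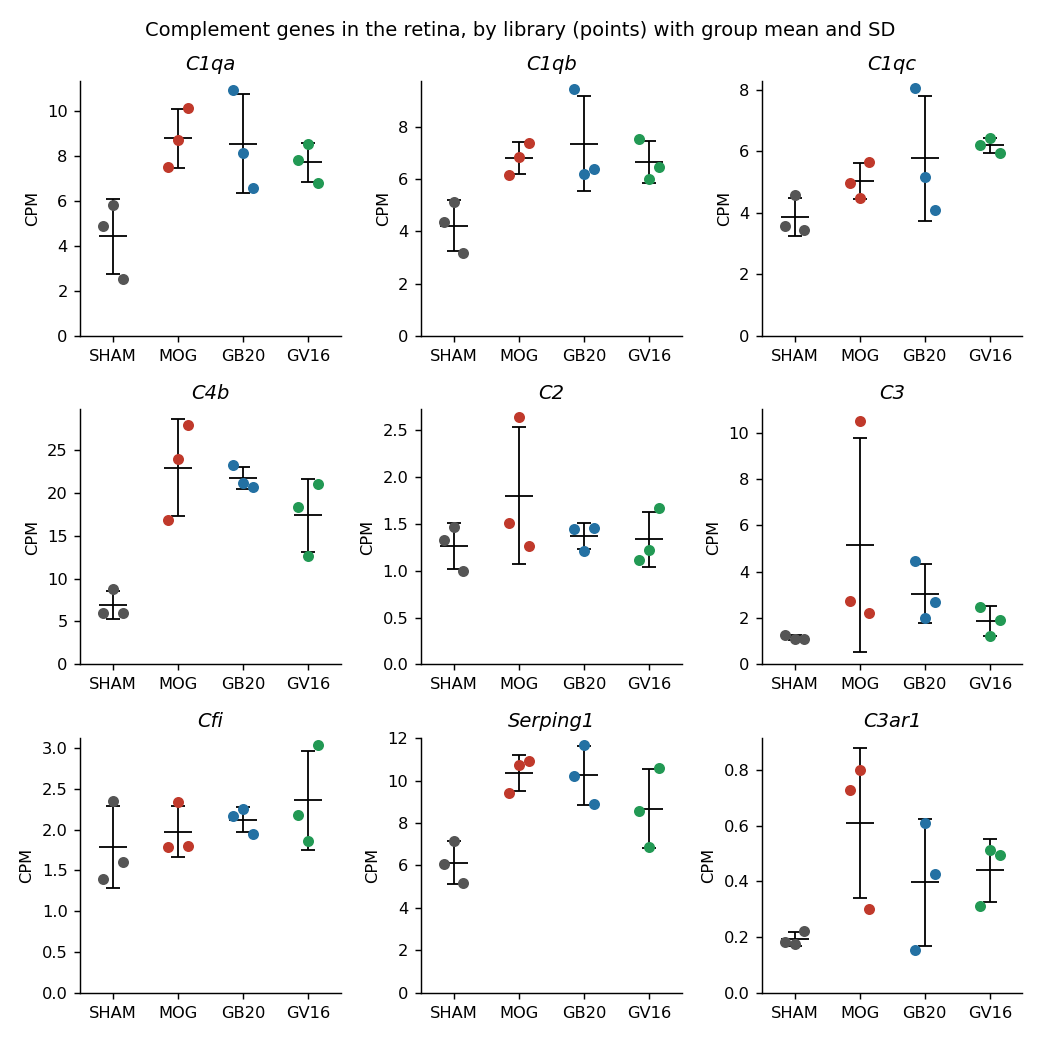
Level of each complement gene in CPM (vertical axis, from 0) in the 4 groups (horizontal axis). Points are the 3 libraries of a group, the horizontal line is the mean and the bar is the SD; all C4b points of MOG, GB20 and GV16 lie above SHAM, and 1 MOG library stands far above the others for C3.

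The genes of the C1q chains stand side by side on the minus strand of chromosome 4. C1qb spans chr4:136880129-136886187 (ENSMUSG00000036905), C1qc chr4:136889804-136893065 (ENSMUSG00000036896) and C1qa chr4:136895917-136898803 (ENSMUSG00000036887). RefSeq promoter sequences (GRCm38.p6) were at hand for 4 of the 9 members, C1qb, C1qc, C3 and C3ar1. Those of the C1q neighbours are shown because these genes moved with each other across libraries. They hold the 250 bases before each RefSeq start on the minus strand, chr4:136886201-136886450 for C1qb and chr4:136892915-136893164 for C1qc. The GENCODE start of C1qc lies 151 bases further upstream, so that 151 bases of its window are inside the gene span given above. Capitals mark the core motif of the myeloid factor PU.1 (GAGGAA, on either strand, TTCCTC where it is on the other), which 23.3% of 32851 promoters of this length hold.
C1qb: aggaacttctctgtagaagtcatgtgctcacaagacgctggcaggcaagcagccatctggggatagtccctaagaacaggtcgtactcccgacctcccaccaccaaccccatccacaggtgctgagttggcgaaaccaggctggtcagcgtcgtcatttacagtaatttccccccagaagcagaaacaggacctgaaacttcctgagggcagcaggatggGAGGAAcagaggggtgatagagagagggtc
C1qc: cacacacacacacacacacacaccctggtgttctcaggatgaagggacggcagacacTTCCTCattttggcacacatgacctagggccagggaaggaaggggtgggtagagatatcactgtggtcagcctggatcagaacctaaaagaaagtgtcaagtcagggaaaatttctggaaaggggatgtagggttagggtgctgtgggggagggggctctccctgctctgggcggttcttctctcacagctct
The motif ends 25 bases before the RefSeq start in C1qb and 188 bases before it in C1qc, which is 38 and 37 bases before the GENCODE starts. A STAT motif (TTCNNNGAA), searched on both strands and held by 7.02% of promoters, was not in these windows. A match is a description of the letters and not of binding.

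C1qa had 4.90, 5.82 and 2.55 CPM in the SHAM libraries and 7.50, 8.73 and 10.1 CPM in the MOG libraries. Its levels were 10.9, 8.15 and 6.58 CPM with GB20 needling and 7.82, 8.55 and 6.81 CPM with GV16 needling. SHAM replicate 3 was the lowest library and GB20 replicate 1 the highest, and all immunized libraries lay above SHAM. C1qa was a DEG in MOG vs. SHAM, 1.99-fold higher, with a log2 fold change of 0.99 (SE 0.24, edgeR adjusted p = 0.0451). This call was lost in 12 of 20 alternative fits. Leaving out SHAM replicate 1 or 3, any MOG or GV16 library or GB20 replicate 2 did so, with estimates between 0.71 and 1.25 over all fits that left out 1 library, and without SHAM replicate 3 it was 0.71 (edgeR adjusted p = 0.0603). C1qa had a log2 fold change of 0.96 (SE 0.24, edgeR adjusted p = 0.0969) in GB20 vs. SHAM and 0.81 (SE 0.24, edgeR adjusted p = 0.169) in GV16 vs. SHAM, and 4 and 2 of 20 alternatives called it there.

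C1qb had 4.36, 5.12 and 3.16 CPM in SHAM and 6.16, 6.82 and 7.39 in MOG. It had 9.43, 6.20 and 6.40 CPM in GB20 and 7.51, 5.98 and 6.44 in GV16. SHAM did not overlap with any immunized group, yet C1qb did not reach the threshold in MOG vs. SHAM (log2 fold change 0.69, SE 0.19, edgeR adjusted p = 0.0819). It was called there in 4 of 20 alternative fits, with no filter on low counts (edgeR adjusted p = 0.0108), with the length correction (edgeR adjusted p = 0.0283), without SHAM replicate 2 (edgeR adjusted p = 0.0281) and with the replicate number as a block (edgeR adjusted p = 0.0468). In GB20 vs. SHAM the log2 fold change of C1qb was 0.81 (SE 0.19, edgeR adjusted p = 0.0632), and 6 of 20 alternatives called it, among them the replicate block (edgeR adjusted p = 0.0325) and DESeq2 (DESeq2 adjusted p = 0.0260). In GV16 vs. SHAM it was 0.66 (SE 0.19, edgeR adjusted p = 0.134), called in 1 of 20, the fit with no filter. C1qc had 3.57, 4.59 and 3.44 CPM in SHAM and 4.98, 4.49 and 5.64 in MOG, which overlapped. It had 8.04, 5.17 and 4.08 CPM in GB20 and 6.21, 6.43 and 5.94 in GV16, and among these only the GV16 libraries were all above SHAM. In MOG vs. SHAM its log2 fold change was 0.38 (SE 0.21, edgeR adjusted p = 0.451). GB20 replicate 1 had the highest level of all 3 chains in all 12 libraries. Without it, the log2 fold change in GB20 vs. SHAM was 0.74 for C1qa, 0.58 for C1qb and 0.26 for C1qc, in place of 0.96, 0.81 and 0.59. Across the 12 libraries the log2 levels of C1qa and C1qb had a Pearson correlation of 0.94, C1qb and C1qc 0.82, and C1qa and C1qc 0.78. These correlations span the groups and share library depth, and are given as a description.

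Microglial genes were set beside the C1q chains. All 16 genes of the microglial list were expressed in every library. Their summed level was 53.9 to 60.3 CPM in SHAM, 78.4 to 84.9 in MOG, 71.0 to 84.3 in GB20 and 74.6 to 87.7 in GV16. In MOG vs. SHAM the median log2 fold change of the 16 genes was 0.35. Of them 3 were higher DEGs, against 0.568% of all tested genes, and none was lower. These were Ctss (cathepsin S, 0.98), Mpeg1 (a pore-forming protein of macrophages, 0.98) and Csf1r (the receptor that keeps microglia alive, 0.59). Cx3cr1, P2ry12 and Tmem119, which mark resident microglia, had 3.81 ± 0.86, 2.33 ± 0.54 and 1.82 ± 0.27 CPM in SHAM against 4.52 ± 0.35, 2.54 ± 1.16 and 2.12 ± 0.33 CPM in MOG, and they were not DEGs. The log2 ratio of the summed C1q level to the geometric mean of the 16 genes was 2.52 ± 0.29 in SHAM, 2.85 ± 0.07 in MOG, 2.92 ± 0.27 in GB20 and 2.75 ± 0.14 in GV16. The difference from SHAM was 0.33 for MOG (2-sided exact permutation test, p = 0.1, the smallest that 3 against 3 libraries can give), 0.40 for GB20 (exact p = 0.2) and 0.23 for GV16 (exact p = 0.4). Without SHAM replicate 3 the difference of MOG from SHAM was 0.17. The part of cell number in the C1q levels was not tested.

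**Figure D2:**
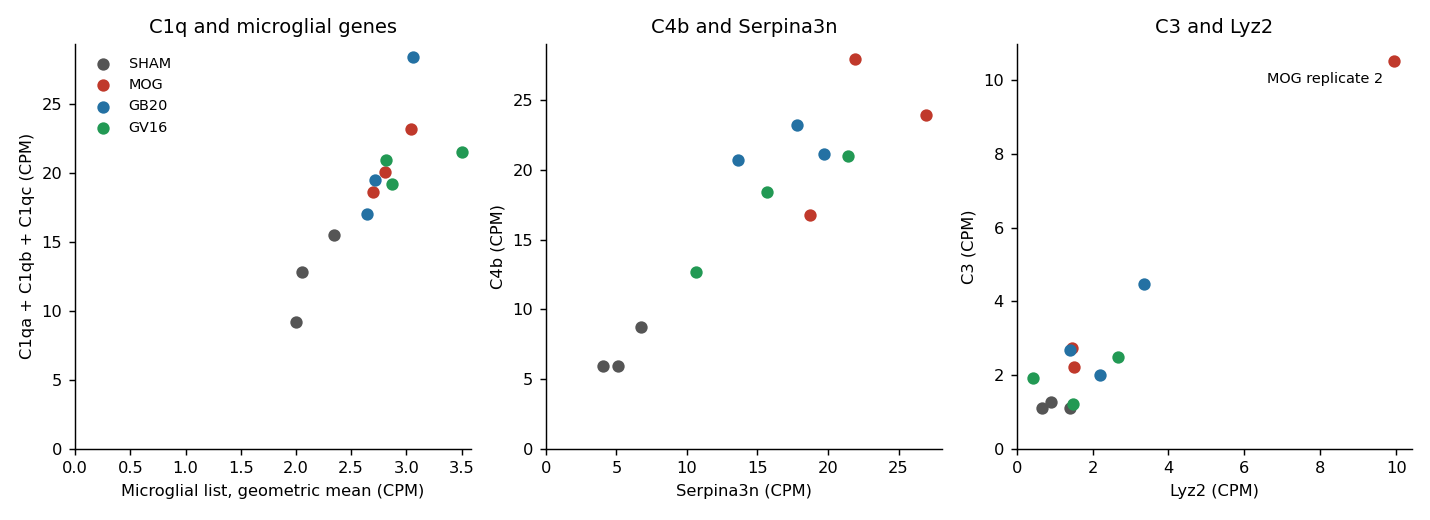
Levels in each of the 12 libraries, coloured by group, all in CPM. Left, the sum of C1qa, C1qb and C1qc against the geometric mean of 16 microglial genes; middle, C4b against Serpina3n; right, C3 against Lyz2, where MOG replicate 2 stands apart with 10.5 CPM of C3 and 9.95 CPM of Lyz2.

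C2, the partner of C4 in the C3-cleaving enzyme, lies at chr17:34862604-34898265 (ENSMUSG00000024371), and 46.9% of its exon bases overlap with Gm20547 or Zbtb12, so that its reads may have been assigned to either gene or to none. It had 0.999 to 1.47 CPM in SHAM, 1.26 to 2.64 in MOG, 1.22 to 1.46 in GB20 and 1.12 to 1.67 in GV16. All groups overlapped, and the log2 fold change in MOG vs. SHAM was 0.51 (SE 0.31, edgeR adjusted p = 0.505). Without MOG replicate 2, its highest library, this was 0.14.

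C3, the central protein on which all complement pathways meet, lies at chr17:57203970-57228136 (ENSMUSG00000024164). It rested on few reads in SHAM, with 21, 19 and 20 counts or 1.27, 1.12 and 1.11 CPM. In MOG it had 2.74, 10.5 and 2.22 CPM, from 49, 171 and 37 counts. C3 had 4.48, 2.01 and 2.68 CPM in GB20 and 2.48, 1.22 and 1.92 in GV16. MOG and GB20 lay above SHAM in every library, GV16 overlapped with SHAM, and MOG replicate 2 was far above all the others. C3 had a log2 fold change in MOG vs. SHAM of 2.13 (SE 0.65, 95% interval 0.66 to 3.60, edgeR adjusted p = 0.215), so that the gene with the highest estimate among the members was not a DEG. DESeq2 called it (2.14, DESeq2 adjusted p = 0.0347), the only alternative of 20 that called it. Without MOG replicate 2 the estimate was 1.09 (edgeR adjusted p = 0.282).

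MOG replicate 2 also stood apart in other genes. Among all tested genes it exceeded the highest other library most in Apod, a lipid carrier (7.80 against 1.75 CPM), then in Lyz2, lysozyme of myeloid cells (9.95 against 3.35), and next in C3 (10.5 against 4.48). Its 12 genes of monocytes and macrophages summed to 14.1 CPM, against 4.68 and 4.98 in the other MOG libraries. The sums were 2.60 to 3.72 in SHAM, 3.77 to 5.82 in GB20 and 3.03 to 5.71 in GV16. Lyz2 is 1 of these 12 genes and alone held 9.95 of the 14.1 CPM, so that this sum mostly repeats its level. Of these 12 genes, Ccr2, Cd163, Plac8, S100a8 and S100a9 were at 0 in MOG replicate 2. This does not set it apart, because every library had 3 to 8 of the 12 at 0. None of the 3 that were tested was a DEG in any comparison. In the same library 10 genes of oligodendrocytes, a list chosen after these values were seen, summed to 107 CPM against 62.4 to 75.6 in the other libraries. A list of 10 fibroblast genes was also highest there, with 22.4 CPM, and the next highest library, GB20 replicate 2, had 16.7. The part of myeloid cells, oligodendrocytes and fibroblasts in the C3 level was not tested.

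Serping1, the inhibitor of C1r and C1s, lies at chr2:84765387-84775444 (ENSMUSG00000023224). It had 6.05, 7.17 and 5.16 CPM in SHAM and 9.40, 10.8 and 10.9 in MOG. It had 10.2, 11.7 and 8.89 CPM in GB20 and 8.57, 6.88 and 10.6 in GV16. MOG and GB20 lay above SHAM in every library, and GV16 replicate 2 fell within the SHAM range. Serping1 had a log2 fold change of 0.76 (SE 0.16, edgeR adjusted p = 0.0152) in MOG vs. SHAM and 0.74 (SE 0.16, edgeR adjusted p = 0.0455) in GB20 vs. SHAM, and it was a DEG in both. It was 0.50 (SE 0.17, edgeR adjusted p = 0.211) in GV16 vs. SHAM. The call in MOG vs. SHAM was lost in 6 of 20 alternative fits, among them those without SHAM replicate 1, SHAM replicate 3, MOG replicate 2 or MOG replicate 3. That in GB20 vs. SHAM was lost in 9 of 20, among them those without the same 4 libraries or without GB20 replicate 1 or 2. With 1 library left out the estimates were 0.64 to 0.89 in MOG vs. SHAM and 0.63 to 0.87 in GB20 vs. SHAM.

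Cfi, the protease that inactivates C3 and C4 fragments, lies at chr3:129835884-129875332 (ENSMUSG00000058952). It had 1.39 to 2.35 CPM in SHAM, 1.79 to 2.33 in MOG, 1.95 to 2.25 in GB20 and 1.86 to 3.03 in GV16. All groups overlapped, and the log2 fold change in MOG vs. SHAM was 0.14 (SE 0.26, 95% interval -0.40 to 0.69, edgeR adjusted p = 0.856). C3ar1, the receptor of C3a on myeloid cells, lies at chr6:122847138-122856161 (ENSMUSG00000040552) and was near the limit of detection, with 3, 3 and 4 counts in SHAM against 13, 13 and 5 counts in MOG. It had 3, 10 and 7 counts in GB20 and 5, 8 and 8 in GV16. The MOG and GV16 libraries lay above SHAM after scaling, and GB20 overlapped with it. Its log2 fold change in MOG vs. SHAM was 1.62 (SE 0.59, 95% interval 0.40 to 2.83, edgeR adjusted p = 0.220).

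Counted together, 3 of 9 members were higher DEGs in MOG vs. SHAM (C4b, Serping1, C1qa), where 0.568% of all tested genes were higher DEGs. Libraries did not overlap for 6 of 9 members, against 7.87% of all tested genes that were higher in this way. In GB20 vs. SHAM 2 of 9 were higher DEGs (C4b, Serping1), against 0.164% of all genes, and 5 did not overlap, against 5.66%. With the replicate block the counts in GB20 vs. SHAM were 3 members, C1qb included, and 68 genes in all, in place of 2 and 30. In GV16 vs. SHAM 1 of 9 was a higher DEG (C4b), against 0.224% of all genes, and 5 did not overlap, against 6.86%, and with the replicate block 1 member and 94 genes in all were higher DEGs, in place of 1 and 41. No member was lower in these comparisons, and all 9 estimates were above 0 in each. The median log2 fold change of the members was 0.76, 0.81 and 0.68 in the 3 comparisons, while the median of all genes was within 0.01 of 0. The 9 members were chosen with earlier results of these data known, so the shares beside all genes are a description only.

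**Figure D3:**
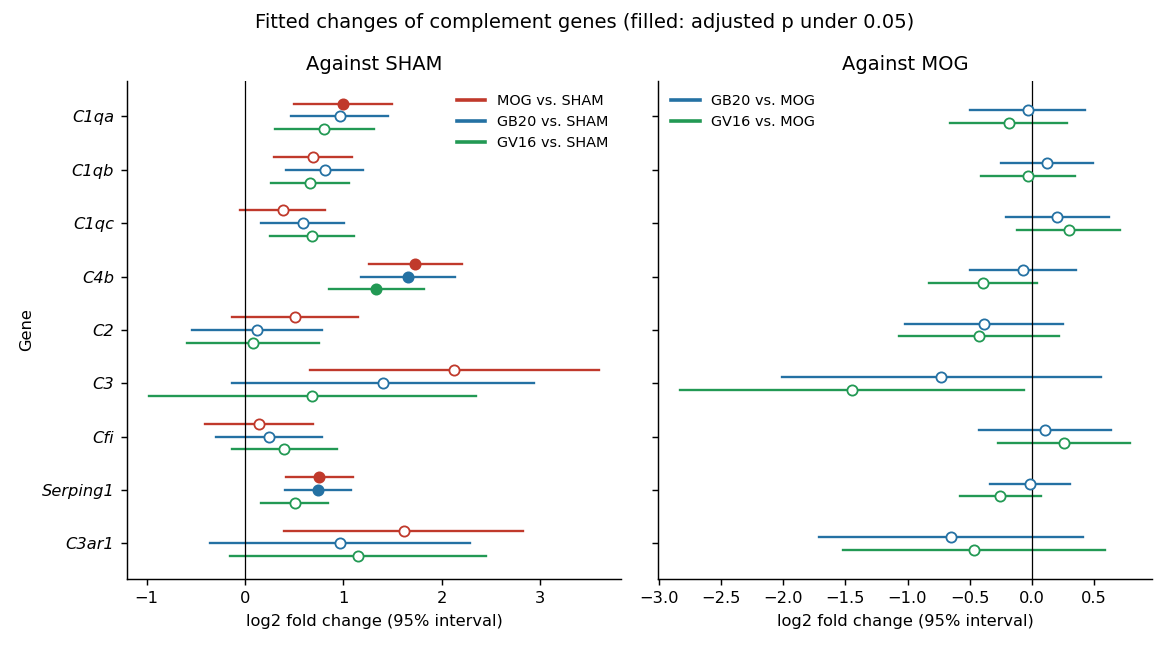
Log2 fold change (horizontal axis) of the 9 complement genes (vertical axis) with its 95% interval from the edgeR fit. Left, MOG, GB20 and GV16 against SHAM; right, GB20 and GV16 against MOG; filled points have an adjusted p under 0.05, which occurs for C4b, Serping1 and C1qa on the left and for no gene on the right.

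The comparisons of the needled groups with MOG ask whether needling moved these genes after immunization. In GB20 vs. MOG 0 of 9 members were DEGs by edgeR, against 0.240% of all genes in either direction, and 0 had an unadjusted p under 0.05, against 8.0% of all genes. In GV16 vs. MOG 0 of 9 were DEGs, against 0.164%, and 1 had an unadjusted p under 0.05, against 5.30%. In GB20 vs. GV16 0 of 9 were DEGs, against 0.00546% of all genes, and 0 had an unadjusted p under 0.05, against 2.93%. DESeq2 and limma also called 0 members in these 3 comparisons. These counts do not show that the groups were alike. For C4b the log2 fold change was -0.07 (95% interval -0.50 to 0.35) in GB20 vs. MOG and -0.40 (-0.83 to 0.04) in GV16 vs. MOG. That of Serping1 was -0.01 (-0.33 to 0.31) and -0.25 (-0.58 to 0.07), and that of C1qa was -0.03 (-0.49 to 0.43) and -0.18 (-0.66 to 0.29). Estimates above 0 numbered 3 of 9 in GB20 vs. MOG and 2 of 9 in GV16 vs. MOG. In the latter C1qc was at 0.30 (-0.12 to 0.71) and Cfi at 0.26 (-0.27 to 0.79). All GV16 libraries of C1qc lay above MOG, as did those of 1129 of 18299 tested genes. C3 was the gene with an unadjusted p under 0.05, at -1.44 (-2.83 to -0.06) in GV16 vs. MOG. Without MOG replicate 2 it was -0.41, and its estimate in GB20 vs. MOG turned from -0.73 to 0.31.

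Other genes of the pathway were taken from a list of 53, of which 29 passed the expression filter. In none of the 6 comparisons was 1 of them a DEG in the edgeR fit. In MOG vs. SHAM 11 of 29 had an unadjusted p under 0.05 in either direction, against 13.0% of all tested genes. The median log2 fold change was 0.10, 15 of the 29 estimates were above 0, and DESeq2 called 0. Against MOG, 6 had an unadjusted p under 0.05 in GB20 and 4 in GV16, and between the needled groups 2 did, beside the 8.0%, 5.30% and 2.93% of all genes given above. In GB20 vs. SHAM there were 6, against 9.06% of all genes, and in GV16 vs. SHAM 5, against 10.9%. Without a filter on low counts edgeR called Clu, Cr2, Csmd1 and Csmd2 in MOG vs. SHAM. Cr2, a receptor for C3 fragments, had 0.231 ± 0.095 CPM in SHAM against 1.09 ± 0.17 CPM in MOG (log2 fold change 2.19, SE 0.58, edgeR adjusted p = 0.0572). C1ra and C1s1, the proteases that C1q activates, had 0.634 ± 0.221 and 0.759 ± 0.135 CPM in SHAM and 1.43 ± 0.73 and 1.02 ± 0.73 in MOG. Cfb, the protease of the alternative pathway, had 0.483 ± 0.317 CPM in SHAM and 0.30 ± 0.22 in MOG, and 79.5% of its exon bases overlap with Gm20547. Hc, which encodes C5 and opens the terminal pathway, had 0.0600 ± 0.0606 CPM in SHAM and 0.0187 ± 0.0323 in MOG. Mbl1, Fcnb, C9, Cd55b and Vsig4 had no count in any library.

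Regulators that shield host cells were also measured. Clu (clusterin), a fluid-phase inhibitor of the terminal complex, had 436 ± 58 CPM in SHAM against 532 ± 50 CPM in MOG. The difference of 0.29 on the log2 scale did not pass (SE 0.09, edgeR adjusted p = 0.135). Cd59a, which blocks the membrane pore, had 50.5 ± 2.0 CPM in SHAM and 46.8 ± 1.7 in MOG. Cd46, a cofactor of Cfi, had 7.60 ± 1.22 CPM in SHAM and 9.07 ± 2.36 in MOG, and Cd55, which splits the C3-cleaving enzyme, had 0.772 ± 0.150 and 0.430 ± 0.130. Of the receptors, C5ar1 had 0.0572 ± 0.0556 CPM in SHAM and 0.198 ± 0.042 in MOG and was not tested. Itgam, the alpha chain of complement receptor 3, had 0.323 ± 0.249 CPM in SHAM and 0.624 ± 0.224 in MOG, and 68.7% of its exon bases overlap with Gm49368.

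**Figure D4:**
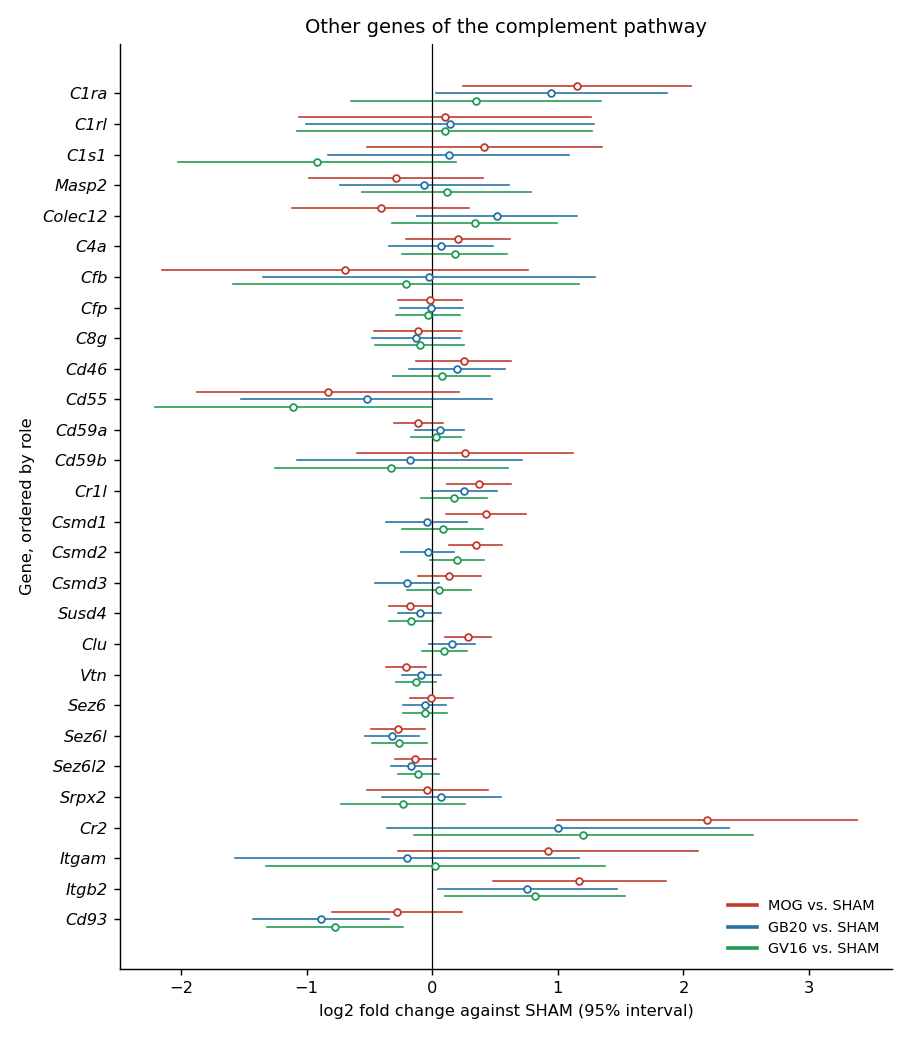
Log2 fold change against SHAM (horizontal axis) with its 95% interval for 28 other tested genes of the complement pathway, ordered by role (vertical axis), in MOG, GB20 and GV16. All points are open because none had an adjusted p under 0.05; many intervals hold 0, and those of genes with few counts such as Cr2, Cd55 and Cfb are wide.

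The genes whose levels were most like those of the members across the 12 libraries were found by Pearson correlation of log2(CPM + 0.5), given as a description. Like the mean of the C1q chains were Ctss (0.96), Gm13112 (0.89), Yipf2 (0.89), Nlrc5 (0.89) and Pttg1ip (0.89). Like C4b were Edn2 (endothelin 2, 0.97), Tnnt2 (0.96), Serpina3n (a protease inhibitor of reactive glia, 0.96), Lad1 (0.95) and Stat3 (0.94). Like Serping1 were Edn2 (0.94), Serpina3n (0.94), S100a6 (0.93), Gfap (the filament of reactive glia, 0.93) and Axl (0.93). C4b and Serping1 themselves had a correlation of 0.94, and C2 and C3 of 0.77. C4b also had correlations of 0.88 with C1qb, 0.83 with C1qa and 0.62 with C1qc. Those of Serping1 with the same genes were 0.81, 0.80 and 0.54.

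Genes of gliosis, a list that shares C1s1 with the pathway list, were set beside C4b and Serping1. Its 18 genes, all tested, summed to 334 to 374 CPM in SHAM, 528 to 601 in MOG, 481 to 542 in GB20 and 416 to 524 in GV16, and Vim and Stat3 had the highest levels in SHAM. In MOG vs. SHAM the list had a median log2 fold change of 0.74. There 9 of 18 were higher DEGs, against 0.568% of all tested genes, and none was lower. In GB20 vs. SHAM and GV16 vs. SHAM 6 and 4 were higher DEGs, against 0.164% and 0.224% of all tested genes. The list was chosen with earlier results of these data known, so these shares are a description only. Against MOG, the median of the list was -0.30 in GB20 and -0.50 in GV16, and that of the 9 members was -0.03 and -0.25. No member was a DEG there, and 1 and 2 genes of the list were lower DEGs. Of all tested genes 0.240% and 0.164% were DEGs in either direction. Osmr, a subunit of the oncostatin M receptor, was a lower DEG in GB20 vs. MOG (-0.67, edgeR adjusted p = 0.0302) and in GV16 vs. MOG (-0.66, edgeR adjusted p = 0.0472), and the growth factor gene Fgf2 was lower in GV16 vs. MOG (-0.52, edgeR adjusted p = 0.0235). Serpina3n had 4.06, 6.76 and 5.10 CPM in SHAM against 18.7, 26.9 and 21.9 CPM in MOG. It had 17.8, 19.7 and 13.6 CPM in GB20 and 15.7, 10.6 and 21.4 in GV16. GV16 replicate 2 was the lowest immunized library for Serpina3n, C4b and Serping1 alike. By contrast 12 genes of Müller cells, led by Glul and Dkk3 in SHAM, had a median log2 fold change of -0.00098 in MOG vs. SHAM, with Cp and Crym as higher DEGs. The part of gliosis in the complement levels was not tested.

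Other lists held fewer DEGs than the gliosis list in MOG vs. SHAM. Of all tested genes 0.568% were higher DEGs in that comparison. Interferon response genes, with 27 of 28 tested, had 2 higher DEGs (Oas2, 2.86, and Parp14, 0.88) and a median log2 fold change of 0.54. Of these 27 genes 15 had an unadjusted p under 0.05, against 13.0% of all genes. Genes of antigen presentation near C2 and C4b summed to 78.1 to 91.6 CPM in SHAM and 104 to 111 in MOG, with 0 of 7 DEGs by edgeR, and GB20 replicate 1, the highest library for the C1q chains, was highest with 136. In MOG vs. SHAM 3 of these 7 had an unadjusted p under 0.05, and their median log2 fold change was 0.65. Pigment epithelium and choroid genes summed to 22.8 to 31.5 CPM in SHAM and 40.2 to 53.9 in MOG, with 0 of 11 tested genes as DEGs and 4 at an unadjusted p under 0.05, against 13.0% of all genes. T and B cell genes summed to 1.51 to 2.29 CPM in SHAM and 1.78 to 3.00 in MOG, with Ms4a1 at 0 in all libraries. Markers of retinal neurons, among them Gnat1 of rods, were abundant in all libraries as the tissue label says, and the ganglion cell genes Pou4f1, Rbpms and Slc17a6 fell in MOG vs. SHAM by 1.03, 0.64 and 0.58 on the log2 scale. Their part in the complement levels was not tested.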

How the data were processed

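Retinal RNA of 12 libraries, 3 in each of 4 groups, had been enriched for polyadenylated RNA and sequenced as paired ends. The authors aligned reads with HISAT2 2.0.5 (build mm10 per the submitters' processing notes), counted them per gene with FeatureCounts and deposited whole-number counts, without normalization. FPKM values deposited by the authors are the same counts divided by gene length and library total (relative deviation at most 1.7e-09 over 11145 genes). The annotation release and the strand setting were not given in the sources used here. Groups came from the sample labels.

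Names and coordinates came from GENCODE vM21 on GRCm38, which named 54495 of 54532 identifiers. The test was edgeR's quasi-likelihood test (edgeR 4.0.16, R 4.3.3). Genes were filtered by expression (18299 kept), scaled by TMM, and fitted with 1 mean per group over all 12 libraries and robust quasi-likelihood dispersion (8 residual degrees of freedom). P-values were adjusted by Benjamini-Hochberg over all tested genes, with a threshold of 0.05. The study used DESeq2, which is an alternative here (DESeq2 1.42.0), beside no filter, DESeq2 size factors, edgeR on the 6 libraries compared, limma 3.58.1 on log2(FPKM + 1) and log2(FPKM + 0.1), a replicate block, a length correction and leaving out each library. Likeness used log2(CPM + 0.5). Permutation tests were made with scipy 1.17.1 and figures with matplotlib 3.10.9 in Python 3.11.15.

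Depth was 15860278 to 19194280 counts per library, and members with few counts (C3ar1, C3, C2) are measured with less precision. Replicate numbers recur in the 4 groups without a stated meaning. Deviations of same-numbered libraries from their group means correlated at over 0.1 in all 3 pairs of SHAM with GB20 (0.21 to 0.53) and of SHAM with GV16 (0.23 to 0.30), and not in all pairs of the other comparisons, so blocked values are given for those 2 comparisons. The pairing there comes from the data and not from the labels. Libraries of 1 group differed by more than sampling noise (chi-square per gene 3.03 to 16.5), so none was treated as a copy. Named were all 9 members, any called pathway gene and 12 further pathway genes (some items are not reported here), the 5 genes most like the C1q chains, C4b and Serping1, and for each list its sum, calls and highest genes. Cr2, Csmd1, Csmd2, the pathway genes with no count and the genes that set MOG replicate 2 apart were named after their values were seen. The members and lists were chosen with earlier results of these data known.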

Additional observations from a re-analysis of the deposited data

How the results depend on the processing

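The log2 fold changes of the 9 members in the 6 comparisons were recomputed in up to 20 alternative fits, which gave 1070 estimates. Of these estimates 994 kept direction and side of the threshold, 33 lost a call, 19 gained one and 24 turned direction. For the results below the cause was not tested. C3ar1, C3, C2 and Cfi had the fewest counts of the members in SHAM and the widest intervals in MOG vs. SHAM. The MOG libraries of C3 were also unequal, with 49, 171 and 37 counts. The log2 fold change followed gene length across 10594 genes (Spearman correlation 0.41 in MOG vs. SHAM and -0.43 in GB20 vs. MOG), and the length correction kept all 3 member calls in MOG vs. SHAM and added C1qb.

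Genes called (245 in MOG vs. SHAM, 44 in GB20 vs. MOG, 30 in GV16 vs. MOG, 1 in GB20 vs. GV16, 63 in GB20 vs. SHAM, 120 in GV16 vs. SHAM, in this order below) were 539, 140, 73, 8, 282 and 395 with no filter. With limma on log2(FPKM + 1) they were 117, 14, 6, 0, 14 and 36, and on log2(FPKM + 0.1) 106, 15, 5, 0, 11 and 39. DESeq2 gave 5, 152 and 202 in the last 3, edgeR on 6 libraries 118, 48, 3 and 66 in GB20 vs. MOG, GV16 vs. MOG, GB20 vs. GV16 and GV16 vs. SHAM, and the length correction 126 in GB20 vs. SHAM. Leaving out 1 library gave 91 to 427, 13 to 83, 10 to 38, 0 to 4, 14 to 116 and 23 to 231.

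Members called in MOG vs. SHAM (3) were 1 with limma at either pseudocount. In GB20 vs. SHAM (2) they were 4 with no filter, DESeq2 or the length correction, and 1 with edgeR on 6 libraries or limma at either pseudocount. In GV16 vs. SHAM (1) they were 4 with no filter and 0 with limma on log2(FPKM + 1). Leaving out 1 library gave 1 to 4, 0 to 4 and 0 to 2. Pathway genes called (0) were 4 in MOG vs. SHAM with no filter, 1 with edgeR on 6 libraries and 2 with the length correction, 2 in GB20 vs. MOG with no filter or edgeR on 6 libraries, and 1 in GV16 vs. SHAM with no filter. Leaving out 1 library gave 0 to 2 in MOG vs. SHAM and in GB20 vs. MOG.

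Estimates that turned direction did so when 1 library was left out. The log2 fold change then ranged from -0.0041 to 0.40 for Cfi in MOG vs. SHAM. In GB20 vs. MOG it ranged from -0.25 to 0.12 for C1qa, -0.11 to 0.23 for C1qb, -0.12 to 0.39 for C1qc, -0.25 to 0.095 for C4b, -1.13 to 0.31 for C3 and -0.11 to 0.073 for Serping1. It ranged from -0.13 to 0.041 for C1qb in GV16 vs. MOG. In GB20 vs. GV16 it ranged from -0.069 to 0.31 for C1qa, -0.077 to 0.26 for C1qb, -0.42 to 0.098 for C1qc, -0.073 to 0.23 for C2, -0.29 to 0.071 for Cfi and -0.63 to 0.23 for C3ar1. For C2 it ranged from -0.029 to 0.24 in GB20 vs. SHAM and from -0.11 to 0.21 in GV16 vs. SHAM.

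Same-numbered libraries deviated together, at a correlation over 0.1, in all 3 pairs of the GB20 and GV16 comparisons with SHAM. In the other 4 comparisons not all pairs did, and there the block is an alternative only. Of 3 pairs each, 2 were over 0.1 for MOG with GV16 and 1 for SHAM with MOG. With a replicate block the genes called were 404 in MOG vs. SHAM, 73 and 47 in the GB20 and GV16 comparisons with MOG, and 182 and 236 in those with SHAM, and 1 pathway gene (Csmd2) was called in MOG vs. SHAM. Among the members the block added C1qb in MOG vs. SHAM and GB20 vs. SHAM and changed no other call.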
